A study of Homo sapiens with 8 samples.

Results

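The repeat families described here belong to human endogenous retrovirus H (HERVH). They were taken from the deposited expression table as every repeat row whose name begins with HERVH, together with the rows named LTR7, LTR7A, LTR7B, LTR7C and LTR7Y. This gave 7 of the 1264 repeat families in the table: 2 internal families, HERVH-int and HERVH48-int, and 5 families of the LTR7 group. RNA-seq was performed in THP-1, an established human acute monocytic leukemia cell line, either parental or decitabine-resistant. Each cell line was treated for 6 days with 1 µM decitabine (DAC) or with its vehicle DMSO, which gave 4 groups of 2 replicates and 8 libraries. The DAC-resistant cells had been selected from the parental line with repeated cycles of DAC, so in DMSO they had already seen the drug before the experiment began.

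HERVH is a family of retroviral remnants that entered the primate germ line, and its copies are scattered over all chromosomes. The internal part (HERVH-int) holds degenerate gag, pol and env sequence, and the long terminal repeats on either side, named LTR7 and its variants LTR7A, LTR7B, LTR7C and LTR7Y, carry the promoter. LTR7 is best known for its activity in pluripotent stem cells, where POU5F1, NANOG and KLF4 bind it, while in most differentiated cells the copies are kept silent by DNA methylation and histone H3 lysine 9 methylation. HERVH48-int is a related internal family that carries another LTR, MER48. DAC, an analogue of deoxycytidine, is incorporated into DNA, traps the DNA methyltransferases and so leaves newly made DNA less methylated.

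The authors deposited expression as FPKM multiplied by 1000, with the repeat families scaled by the repeat reads of each library. A value of a family is therefore its share of repeat reads per length, summed over all copies in the genome. In a bulk sample, more cells that make a transcript and more transcript per cell cannot be told apart, and reads that start at LTR7 cannot be told apart from reads of a gene that contains an HERVH copy. The deposited values were whole multiples of 1 read for all 1172 families above 0, and the recovered repeat reads ranged from 3112424 to 3725678 per library. Per gene read, the DAC-resistant libraries held 0.874 to 0.881 of the repeat reads of the first parental DMSO library, and the parental DAC libraries 0.974 to 0.979. Between the replicates of each group the families differed beyond counting noise, with a chi-square of 3.43 to 3.73 per family over 790 families. Of 8 monocytic leukemia markers, 6 to 8 reached 1 FPKM in at least 1 library of each group, and their summed level was 147 to 149 FPKM in parental cells with DMSO, 247 to 248 with DAC, and 88.8 to 93.4 in the DAC-resistant groups. Of the 6 pluripotent cell markers (POU5F1, NANOG, LIN28A, DPPA4, SOX2 and L1TD1), summed levels stayed between 0.623 and 1.84 FPKM over the 8 libraries. POU5F1 reached 1 FPKM in at least 1 library of every group but parental cells with DAC, where L1TD1 did.

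LTR7 sequence lies at the annotated start of some human genes, which allows genes with a promoter of this kind to be followed. The window of the ESRG start, a non-coding gene of stem cells that is transcribed from an LTR7, was compared with the windows of 219303 annotated transcript starts (GENCODE release 44 on GRCh38, 250 bases before to 50 after each start). A window was taken as LTR7-like when it aligned to that of ESRG over at least 200 bases at 80% identity or more. The 58 genes with such a start included ESRG itself, and 43 of them were in the table. These windows were poor in CG dinucleotides, the sites of DNA methylation, which read the same on both strands. Over the LTR7-like windows the median was 4 and the range 0 to 8, against a median of 8 over all windows.

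HERVH-int, the body of the provirus, was the family with the most reads of the 7, at 9911 to 24579 per library. Its 5914086 bases of annotated copies make it also the longest. It was measured at 797 and 764 (FPKM × 1000) in parental DMSO libraries, 1320 and 1266 in parental DAC, 545 and 544 in DAC-resistant DMSO, and 519 and 530 in DAC-resistant DAC. The 4 groups did not overlap: parental cells with DAC were highest, parental cells with DMSO came next, and both DAC-resistant groups lay below them. As a share of all repeat reads, HERVH-int took 0.471% (95% Wilson interval 0.464 to 0.478) and 0.452% (0.445 to 0.459) in parental DMSO, and 0.781% (0.771 to 0.791) and 0.749% (0.74 to 0.759) in parental DAC. In the DAC-resistant libraries the share lay between 0.307% and 0.322%. These intervals cover counting error only.

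HERVH48-int was measured at 1293 and 1113 in parental DMSO, 1584 and 1560 in parental DAC, 1172 and 1029 in DAC-resistant DMSO, and 1171 and 1219 in DAC-resistant DAC. Only the parental DAC libraries stood apart, above the other 3 groups, which overlapped one another. It rested on 705 to 1097 reads per library. Its partner MER48, which is not one of the 7 families, was at 477 and 603 in parental DMSO, 1174 and 910 in parental DAC, 772 and 830 in DAC-resistant DMSO, and 1207 and 1103 in DAC-resistant DAC.

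Among the promoter families above 0, LTR7C had the highest level per length and LTR7 the lowest. LTR7C was at 4698 and 4832 in parental DMSO, 9084 and 8637 in parental DAC, 4965 and 4526 in DAC-resistant DMSO, and 5024 and 5038 in DAC-resistant DAC. The parental DAC libraries were the highest, the DAC-resistant DAC libraries lay just above both DMSO groups, and the parental and DAC-resistant DMSO libraries overlapped. LTR7B, a variant with 662 to 1709 reads per library, was at 1345 and 1480 in parental DMSO, 806 and 639 in parental DAC, 965 and 978 in DAC-resistant DMSO, and 1084 and 1103 in DAC-resistant DAC. Its highest group was parental DMSO, its lowest parental DAC, and no groups overlapped.

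LTR7Y, the family with the fewest reads above 0 (161 to 253 per library), was at 527 and 490 in parental DMSO, 600 and 632 in parental DAC, 692 and 741 in DAC-resistant DMSO, and 828 and 859 in DAC-resistant DAC. Its libraries fell into 4 groups without overlap, the DAC-resistant ones on top. How many of all families have 4 groups without overlap, as LTR7Y, HERVH-int and LTR7B did, was not counted. LTR7 itself was at 442 and 394, 384 and 387, 371 and 337, and 338 and 368 in the same order of groups, a range in which the 2 DAC-resistant groups overlapped. LTR7A was listed at 0 in all 8 libraries, and a count of 0 allows up to 3 reads in each.

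**Figure D1:**
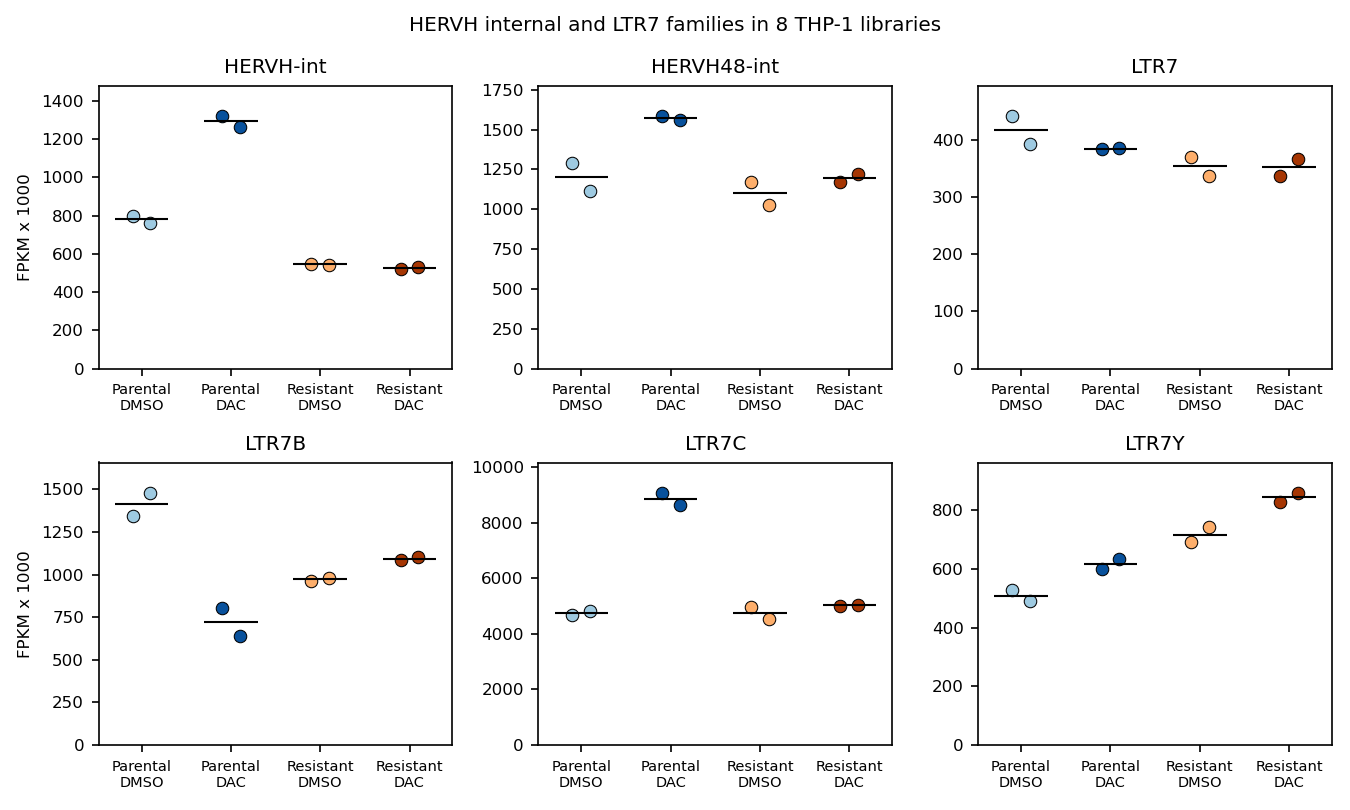
Level of each family above 0 (FPKM × 1000, axis from 0) in the 4 groups, with a point for each of the 2 libraries and a bar at their mean. HERVH-int and LTR7C were highest in parental cells with DAC (1293 and 8861 on average), LTR7B was lowest there (722), and LTR7Y was highest in DAC-resistant cells with DAC (844).

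To ask how DAC changed the families in parental cells, DAC was compared with DMSO by limma on log2(value + 1), with p-values adjusted over the 1165 families that had a value of at least 1 in at least 2 libraries. Of the 7 families, 6 could be tested. HERVH-int, HERVH48-int, LTR7C and LTR7Y rose, LTR7B fell, and LTR7 did not pass the threshold of an adjusted p under 0.05. Among all families tested, 23.6% were called in this comparison, 12.6% higher and 11% lower. HERVH-int rose 1.66-fold, from 780 ± 23.3 to 1293 ± 38.3 (mean ± SD, n = 2), a log2 fold change of 0.73 (SE 0.040, adjusted p = 0.00033). LTR7C rose 1.86-fold, from 4765 ± 94.6 to 8861 ± 316, a log2 fold change of 0.89 (SE 0.057, adjusted p = 0.0005).

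LTR7B went the other way, from 1412 ± 95.4 to 722 ± 118, a 1.96-fold fall and a log2 fold change of -0.97 (SE 0.11, adjusted p = 0.0045). HERVH48-int rose by 0.39 on the log2 scale (SE 0.093, adjusted p = 0.038) and LTR7Y by 0.28 (SE 0.060, adjusted p = 0.029), but rescaling each library to TPM, which shifted all families by -0.40 here, put them at -0.01 and -0.13. Both calls were also lost when either parental DAC library, either DAC-resistant DAC library or the second parental DMSO library was left out (adjusted p 0.065 to 0.14 for HERVH48-int and 0.054 to 0.12 for LTR7Y), and that of LTR7Y without the first parental DMSO library as well (0.056). LTR7 had a log2 fold change of -0.11 with a 95% interval of -0.34 to 0.11, and it was called lower under TPM (-0.52, adjusted p = 0.0055). None of the 6 reached a change of at least 2-fold at an unadjusted p of at most 0.01, the thresholds of the volcano plots in the study, which 4.21% of all families met.

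The median log2 fold change of the 6 families was 0.33, with a range of -0.97 to 0.89, against -0.02 over all 1165. The HERV9 internal and LTR12 families, another group whose LTRs are known for their promoter activity, had 7 of 10 called higher and none lower, with a median of 0.78. The HERVK internal and LTR5 families had 1 of 14 called higher and 4 lower, with a median of 0.13. MER48 rose by 0.94 (SE 0.16, adjusted p = 0.015).

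In DAC-resistant cells the same treatment left no family called. HERVH-int had a log2 fold change of -0.05 (95% interval -0.16 to 0.05), LTR7C of 0.09 (-0.06 to 0.23), LTR7B of 0.17 (-0.12 to 0.46), HERVH48-int of 0.12 (-0.11 to 0.36) and LTR7 of 0.00 (-0.23 to 0.22). LTR7Y had the largest value, 0.24 (0.08 to 0.39), with an unadjusted limma p of 0.01 and an adjusted p of 0.35. By limma, 0 of all 1165 families (0% in either direction) were called at an adjusted p under 0.05, 117 (10%) had an unadjusted p under 0.05, and 6 (0.515%) met the volcano thresholds, none of them an HERVH or LTR7 family. MER48 was at 0.53 (SE 0.16, adjusted p = 0.42).

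The DAC effects of the 2 cell lines were then compared directly, as the effect in DAC-resistant cells minus that in parental cells. The difference passed the test for HERVH-int, LTR7B and LTR7C, while 13.3% of all families were called (6.44% higher, 6.87% lower) and 4.38% met the volcano thresholds, LTR7B among them. It was -0.78 for HERVH-int (SE 0.056, adjusted p = 0.0012), -0.81 for LTR7C (SE 0.080, adjusted p = 0.0038) and 1.14 for LTR7B (SE 0.16, adjusted p = 0.013). The call of LTR7B was lost without the second parental DMSO, the first DAC-resistant DMSO or the second DAC-resistant DAC library (adjusted p 0.052 to 0.055). For LTR7Y the difference was -0.04 (95% interval -0.26 to 0.17), for HERVH48-int -0.27 (-0.60 to 0.06) and for LTR7 0.11 (-0.21 to 0.43). Rescaling to TPM shifted all families by 0.35 in this comparison, and with that common shift 5 families were called instead of 3, LTR7 at 0.46 and LTR7Y at 0.31, while HERVH48-int was at 0.08.

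**Figure D2:**
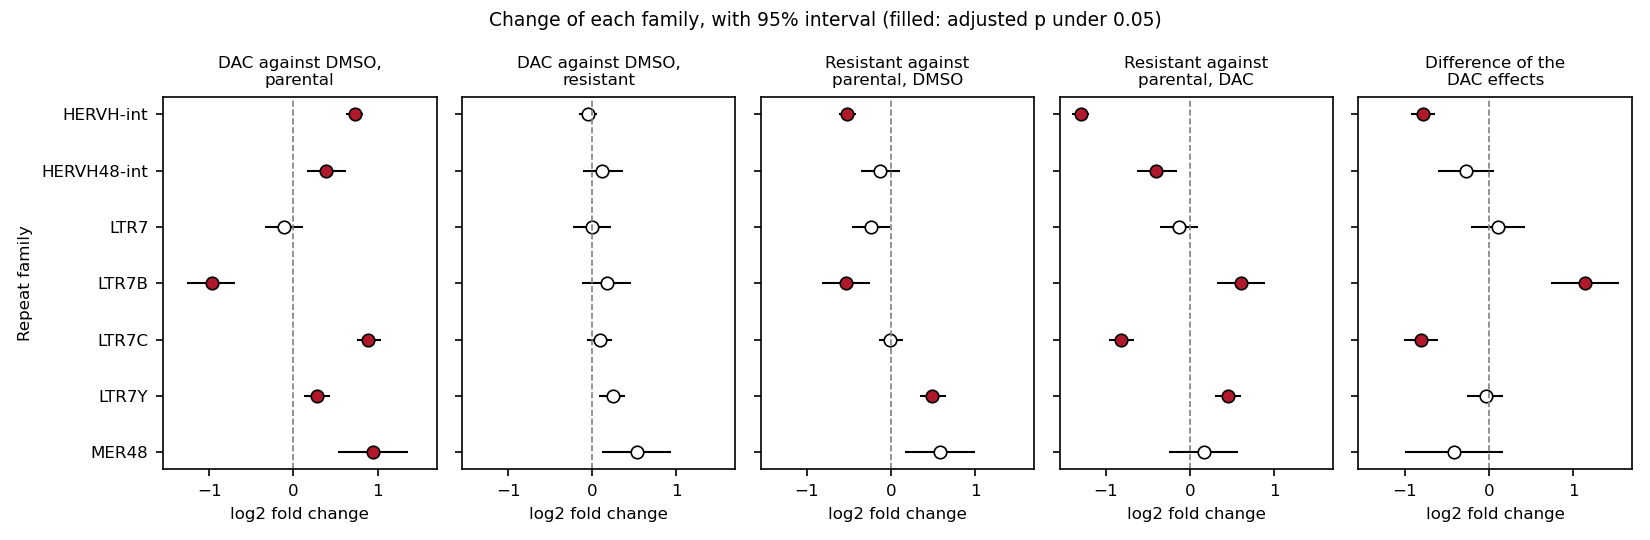
Log2 fold change (points) with its 95% interval (lines) of each family and of MER48 in 5 comparisons, filled where the adjusted p was under 0.05. In parental cells HERVH-int (0.73) and LTR7C (0.89) lay to the right and LTR7B (-0.97) to the left of 0, whereas in DAC-resistant cells no point was filled. Rescaling to TPM, which shifted all families by -0.40 in parental cells and by 0.35 for the difference, changed the sign of HERVH48-int (-0.01) and LTR7Y (-0.13) in the former and of LTR7Y (0.31) and HERVH48-int (0.08) in the latter, and with a shift of 0.23 that of LTR7 (0.10) between the cell lines in DAC.

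Without drug, the question was whether the families stood at other levels in cells that had become DAC-resistant. HERVH-int and LTR7B were lower and LTR7Y was higher than in parental cells, and 29.5% of all families were called (11.9% higher, 17.6% lower). HERVH-int stood at 69.8% of its parental level, a log2 fold change of -0.52 (SE 0.040, adjusted p = 0.0012). LTR7Y stood at 141% of it, 717 ± 34.8 against 509 ± 26.1, a log2 fold change of 0.49 (SE 0.060, adjusted p = 0.0048). LTR7B was at 68.8%, a log2 fold change of -0.54 (SE 0.11, adjusted p = 0.023), a call that was lost without any 1 of the 4 libraries compared (adjusted p 0.066 to 0.1).

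LTR7C had a log2 fold change between the cell lines in DMSO of -0.01 (95% interval -0.15 to 0.14), and it was called at -0.33 after quantile normalization and at -0.18 when scaled by gene depth. LTR7 had a log2 fold change of -0.24 (-0.46 to -0.01) with an adjusted p of 0.1, and was called under TPM (-0.35), gene depth (-0.42) and voom on the recovered reads (-0.24). HERVH48-int was at -0.13 (-0.36 to 0.11). None of the 6 met the volcano thresholds here, against 4.64% of all families. Scaling by gene depth, which shifted all families by -0.18, called 5 of the 6. The median of the 6 was -0.18 as deposited, against -0.07 over all families.

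With DAC in both cell lines, HERVH-int had its largest difference of the 5 comparisons. It was 2.46-fold lower in DAC-resistant cells, a log2 fold change of -1.30 (SE 0.040, adjusted p = 4.2e-05), and it alone of the 6 met the volcano thresholds, as did 7.21% of all families. At an adjusted p under 0.05, 36% of all families were called (17.1% higher, 18.9% lower). LTR7C was lower by 1.76-fold (-0.82, SE 0.057, adjusted p = 0.00047), and LTR7Y was higher (0.45, SE 0.060, adjusted p = 0.004). LTR7B was higher at 0.61 (SE 0.11, adjusted p = 0.012). This call was lost without the first or the second DAC-resistant DAC library. It was also lost when limma was fitted on only the groups compared (adjusted p = 0.058). HERVH48-int was lower at -0.40 (SE 0.093, adjusted p = 0.025), but its call was lost without any 1 of the 4 libraries compared (0.077 to 0.11) and under TPM (-0.16). LTR7 was at -0.13 (95% interval -0.36 to 0.10), and at 0.10 when rescaled to TPM, which shifted all families by 0.23. The comparisons share libraries, the parental DMSO or parental DAC ones among them, so the same libraries enter several of these values.

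Within the LTR7 group, the reads shifted between subfamilies. In parental DMSO, LTR7C took 40.9 ± 0.566% of the reads of the group (mean ± SD, n = 2), LTR7B 29.5 ± 1.84%, LTR7 26.5 ± 2.33% and LTR7Y 3.02 ± 0.17%. With DAC, the share of LTR7C was 63.8 ± 0.354% and that of LTR7B 12.6 ± 1.56%. LTR7B took 28.2% (95% Wilson interval 27.1 to 29.4) and 30.8% (29.6 to 32) in the parental DMSO libraries, against 13.7% (12.9 to 14.6) and 11.5% (10.7 to 12.4) in the DAC libraries. In DAC-resistant cells the shares of LTR7C were 46.4 ± 1.06% in DMSO and 46.2 ± 0.849% in DAC, and those of LTR7B 23.1 ± 1.2% and 24.5 ± 0.212%. LTR7Y had its highest shares there, 4.87 ± 0.445% and 5.36 ± 0.0283%. Since shares add to a whole, a rise of 1 subfamily lowers the others, and with 2 libraries against 2 an exact two-sided permutation test cannot go below p = 0.333.

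**Figure D3:**
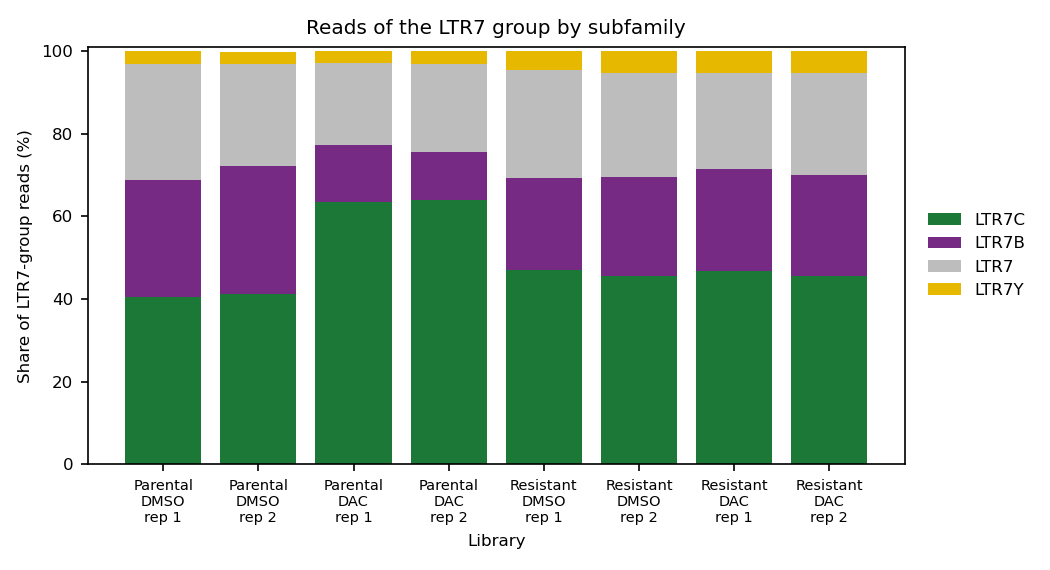
Reads of LTR7C, LTR7B, LTR7 and LTR7Y as a percentage of the reads of the LTR7 group, stacked from 0, in each of the 8 libraries. LTR7C filled 63.5% and 64% of the bars of the parental DAC libraries and 40.5% to 47.1% of the other 6, and LTR7B 13.7% and 11.5% against 22.3% to 30.8%.

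The balance between the internal part and its promoters can be given within a library, where it does not depend on how that library was scaled. The ratio of HERVH-int to the summed LTR7 group was 0.114 and 0.106 in parental DMSO, 0.121 and 0.123 in parental DAC, 0.078 and 0.083 in DAC-resistant DMSO, and 0.071 and 0.072 in DAC-resistant DAC. The DAC-resistant libraries thus held less HERVH-int for their LTR7 signal, by -0.45 on the log2 scale in DMSO and -0.77 in DAC, with no overlap (exact permutation p = 0.333 for each, the smallest possible). With DAC the ratio moved by 0.15 in parental and by -0.16 in DAC-resistant cells, at the same p. Against LTR7 alone, the ratio was 1.80 and 1.94 in parental DMSO, 3.44 and 3.27 in parental DAC, and 1.44 to 1.62 in the 4 DAC-resistant libraries. HERVH-int made up 71.8% and 71.3% of the reads of the 7 families in parental DMSO, 77.4% and 77.6% in parental DAC, and 64.1% to 67.3% in the DAC-resistant libraries.

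The repeat families whose level followed HERVH-int most closely over the 8 libraries were L1M4c (Pearson r = 0.996), HERVP71A-int (0.991) and L1ME3E (0.985), among 784 families with at least 100 reads in every library. L1M4c and L1ME3E are old LINE-1 families, and HERVP71A-int is the internal part of another endogenous retrovirus. HERVP71A-int was at 378 ± 3.07 in parental DMSO, 1798 ± 33.3 in parental DAC, 188 ± 30.4 in DAC-resistant DMSO and 151 ± 10.9 in DAC-resistant DAC. LTR7 was most like LTR16D (0.981), MER34C2 (0.948) and LTR14B (0.934). These correlations describe 8 libraries in 4 groups that share the scaling, and carry no test.

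Genes known to hold or border an HERVH copy were at low levels in these cells. Of 10 listed, ESRG and SCGB3A2 were at 0 in all 8 libraries, and 2, HHLA3 and ABHD12B, passed the filter of 1 FPKM in at least 2 libraries. Neither was called with DAC in parental cells, where 57.7% of all 14899 genes tested were (33.6% higher, 24.1% lower). LINC-ROR, a non-coding RNA of reprogrammed stem cells, had 11 and 0 reads in parental DMSO, 67 and 57 in parental DAC, and 0 in all 4 DAC-resistant libraries. HHLA2, an immune checkpoint ligand named for its HERV-H LTR, had 7 reads in each parental DMSO library, 39 and 15 in parental DAC, and 3 to 7 in the DAC-resistant libraries. UCA1, a non-coding RNA of bladder cancer, had 13 and 15 reads in parental DMSO, 2 and 3 in parental DAC, and 0 or 1 in the DAC-resistant libraries.

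HHLA3 was at 5.45 and 7.45 FPKM in parental DMSO and 3.19 and 3.78 in DAC-resistant DMSO, a log2 fold change of -0.72 (SE 0.20, adjusted p = 0.02), in a comparison that called 57.5% of all genes. The call was lost without the second parental DMSO or the first DAC-resistant DMSO library. ABHD12B, a gene of the abhydrolase family, was at 1.07 and 0.971 FPKM in parental DMSO, 0.671 and 0.672 in parental DAC, 1.26 and 0.987 in DAC-resistant DMSO, and 1.42 and 1.30 in DAC-resistant DAC. Under DAC it was higher in DAC-resistant than in parental cells by 0.50 (SE 0.10), where 67% of all genes were called. Its DAC effects differed by 0.43 (SE 0.14), where 49.3% were. The latter call held only without the first DAC-resistant DMSO library among the 8 left out in turn. ABHD12B would not have passed the filter without the DAC-resistant libraries, so no p-value is given for either difference.

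Of 12 genes known to activate or silence LTR7, 8 could be tested. With DAC in parental cells ZNF90, TRIM28 and DNMT1 rose and KLF4 fell, 4 of the 8, against 57.7% of all genes called (33.6% higher, 24.1% lower). With DAC in DAC-resistant cells, where 11.2% of all genes were called (5.88% higher, 5.35% lower), TRIM28, DNMT1 and UHRF1 fell and none rose. Of the activators, SOX2, NANOG and TFCP2L1 had at most 7 reads in any library. KLF4, a stem cell and monocyte transcription factor, went from 3.98 and 3.94 FPKM to 2.94 and 3.0 with DAC in parental cells, a change of -0.32 (SE 0.054, adjusted p = 0.0023). POU5F1, the stem cell factor OCT4, was at 1.08 and 0.446 FPKM in parental DMSO and 0.227 and 0.366 in parental DAC. In the DAC-resistant libraries it was at 1.05 to 1.47, and under DAC it was higher there by 0.70 on the log2 scale. Without the DAC-resistant libraries it would not have passed the filter, so no p-value is given for this difference. POU5F1 has near-identical pseudogenes and ZNF90 close paralogs, so their counts are uncertain to that extent.

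Among the silencers, DNMT1, which copies DNA methylation after replication, moved in opposite directions in the 2 cell lines. It was at 21.9 and 22.2 FPKM in parental DMSO, 26.2 and 26.7 in parental DAC, 23.2 and 23.1 in DAC-resistant DMSO, and 17.5 and 17.3 in DAC-resistant DAC. The DAC effects were 0.25 in parental cells (adjusted p = 0.00032) and -0.39 in DAC-resistant cells (adjusted p = 0.0012). Their difference was -0.64 (SE 0.039, adjusted p = 3.7e-05). TRIM28, the corepressor that KRAB zinc finger proteins recruit, rose by 0.25 in parental cells (adjusted p = 0.0036) and fell by 0.20 in DAC-resistant cells (adjusted p = 0.041), the latter a call that was lost without any 1 of the parental DMSO, DAC-resistant DMSO or DAC-resistant DAC libraries.

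UHRF1, which brings DNMT1 to hemimethylated DNA, had a DAC effect of 0.03 in parental cells (adjusted p = 0.48) and -0.31 in DAC-resistant cells (adjusted p = 0.0025). SETDB1, the histone H3 lysine 9 methyltransferase that works with TRIM28, was lower in DAC-resistant cells in DMSO (-0.23, SE 0.060, adjusted p = 0.016), a call lost without the second library of either group. ZNF90, a KRAB zinc finger gene, was the regulator that differed most between the cell lines. It was at 0.0881 and 0.00542 FPKM in parental DMSO, 0.466 and 0.616 in parental DAC, and 5.60 to 6.03 in the 4 DAC-resistant libraries. In DMSO this was a log2 fold change on log2(FPKM + 1) of 2.69. ZNF90 passed the filter only through the DAC-resistant libraries, where it was high, so no p-value is given for this difference. ZNF534, its relative, had 0 and 1 reads in parental DMSO, 118 and 174 in parental DAC, and 7 to 22 in the DAC-resistant libraries.

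The 43 genes with an LTR7-like start, a list drawn up after values had been seen, gave a gene-level view of such promoters. A gene's reads do not tell which of its starts was used. In all, 17 were at 0 in every library and 7 could be tested: IFIT2, C5AR1, TFPI, RPL39L, LINC02700, ABHD12B and ZNF114. With DAC in parental cells, IFIT2 and C5AR1 rose and RPL39L and LINC02700 fell, 4 of the 7, a share close to the 57.7% of all genes called (33.6% higher, 24.1% lower), and RPL39L lost its call without the second parental DMSO or the first parental DAC library. LINC02700 (ENSG00000255666, a non-coding gene on chromosome 11) was at 4.54 and 3.55 FPKM in parental DMSO, 1.58 and 1.52 in parental DAC, 2.73 and 2.61 in DAC-resistant DMSO, and 2.61 and 2.49 in DAC-resistant DAC. Like LTR7B it was highest in parental DMSO and lowest in parental DAC.

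LINC02700 fell by 0.98 on the log2 scale with DAC in parental cells (SE 0.10, adjusted p = 0.00024), and in DAC-resistant cells its change was -0.05 (adjusted p = 0.82). The difference between the 2 DAC effects was 0.93 (SE 0.14, adjusted p = 0.002). Other non-coding genes of the list had other patterns. ENSG00000286966, which lay below the filter and was not tested, was at 0.213 and 0.255 FPKM in parental DAC and at 0 in the other 6 libraries. The reads behind these low values were not recovered. ENSG00000288595 was at 12 and 21 reads in parental DMSO, 13 and 16 in parental DAC, and 0 to 2 in the DAC-resistant libraries. LINC-ROR joined the former, with its reads mostly in parental DAC.

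The LTR7-like start was an alternative one for LINC02700 and for the coding genes IFIT2, C5AR1, TFPI, RPL39L and ABHD12B. IFIT2, an interferon-induced gene that binds viral RNA, was at 1.57 and 1.43 FPKM in parental DMSO, 26.6 and 27.7 in parental DAC, 26.9 and 27.1 in DAC-resistant DMSO, and 21.7 and 22.2 in DAC-resistant DAC. It was low in parental DMSO alone. C5AR1, the receptor of complement fragment C5a, was at 4.17 and 3.48 FPKM in parental DMSO and 5.51 and 5.46 in parental DAC. It was at 0.202 to 0.264 in the DAC-resistant libraries, a log2 fold change between the cell lines of -1.98 in DMSO. C5AR1 passed the filter only through the parental libraries, so no p-value is given for this difference. TFPI, an inhibitor of coagulation, was at 0.353 and 0.343 FPKM in parental DMSO and 0.696 and 0.556 in parental DAC. In DAC-resistant cells it was at 1.41 and 1.39 in DMSO and 1.57 and 1.22 in DAC. The log2 fold change between the cell lines in DMSO was 0.83. TFPI passed the filter only through the DAC-resistant libraries, so no p-value is given for this difference. ZNF114 was called in no comparison.

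**Figure D4:**
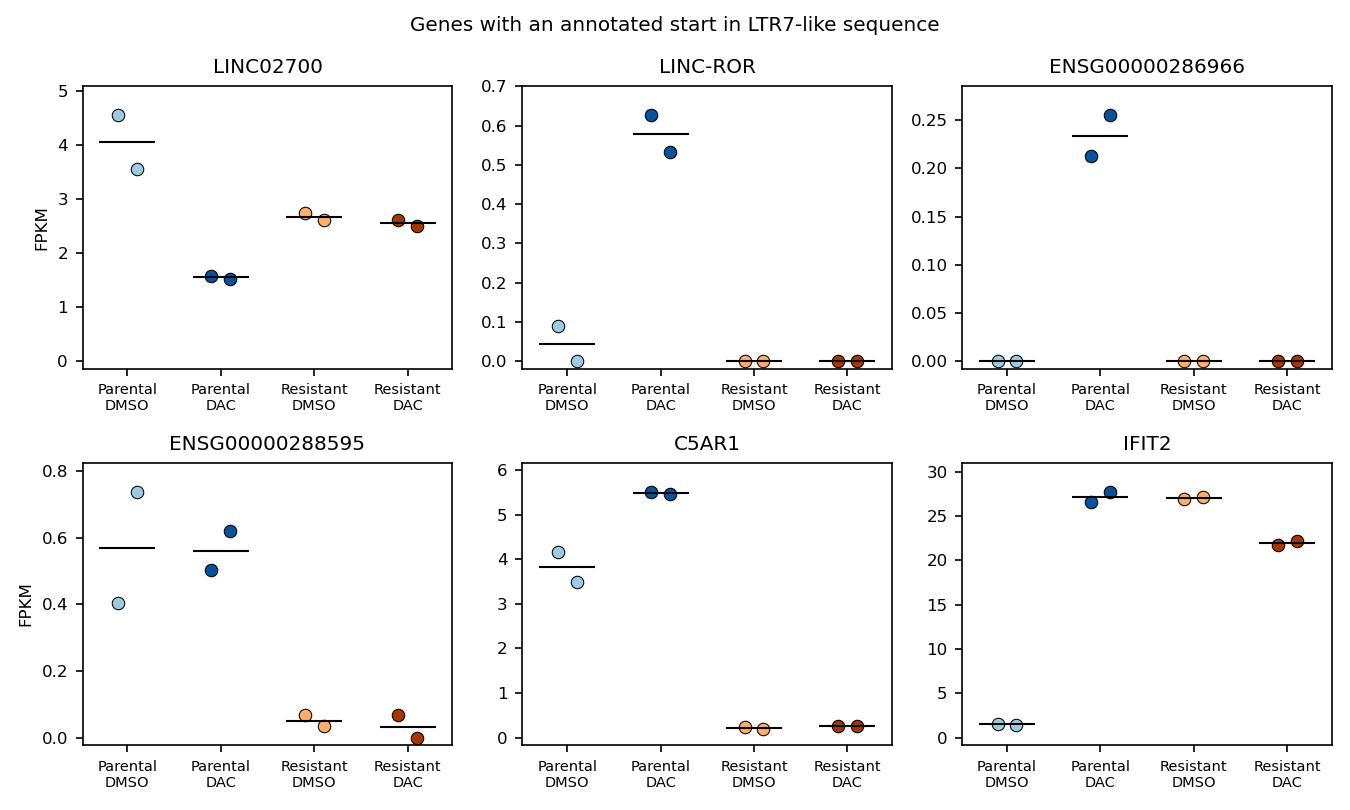
Level (FPKM) of 6 genes with an annotated start in LTR7-like sequence, with a point for each library and a bar at the mean of each group of 2. LINC-ROR, ENSG00000286966 and ENSG00000288595 lay below the filter and were not tested. LINC02700 was lowest (1.58 and 1.52) and LINC-ROR highest (0.626 and 0.533) in parental DAC, C5AR1 was low in the 4 DAC-resistant libraries (0.202 to 0.264), and IFIT2 was low only in parental DMSO (1.57 and 1.43).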

How the data were processed

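RNA was sequenced from 8 libraries of THP-1 cells with an mRNA library kit. The authors trimmed reads with cutadapt (1.9.1), aligned them to hg38 with HISAT2 (2.1.0), sorted them with SAMtools (1.6) and counted them with HTSeq (0.13.5) on Ensembl genes and RepeatMasker families, and deposited FPKM values multiplied by 1000. Strandedness, the handling of multi-mapped reads and the clone number of the DAC-resistant line are not given in the sources used here, and reads of similar subfamilies may have been assigned to one another. Repeat families were fitted on log2(deposited value + 1) and genes on log2(FPKM + 1), each as 4 group means in one fit with limma-trend (3.58.1, R 4.3.3), two-sided, with Benjamini-Hochberg adjustment over all features tested (1165 families, 14899 genes) and calls at an adjusted p under 0.05. A fold change on log2(FPKM + 1) understates the change of low genes. The deposited values were whole reads for 100% of the families above 0 (within 0.01 read), and voom on these reads was an alternative. The fit was tested on simulated data for the parental DAC comparison, with 1160 families and 13488 genes in all, changed and unchanged. Of 199 families changed by 1 on the log2 scale 181 were called (91%), and 5 unchanged families were called as well. Of 192 genes changed in the same way 130 were called (67.7%), and 4 unchanged genes were called as well. The simulated family reads had the same chosen dispersion for every family, and the share recovered depends on that choice. The 6 families described here changed by -0.97 to 0.89 in this comparison, and recovery of changes smaller than 1 was not tested. Labels call the replicates biological, and p-values measure the spread between them. No second, independently selected DAC-resistant line was sequenced. The p-values between the cell lines therefore do not cover the spread between such lines, and resistance cannot be told apart from other differences between the 2 lines. Named families were all members, and for likeness the 3 with the highest correlation. Genes came from lists written from general knowledge. Members and lists were chosen with earlier results of these data known. Alternatives were other pseudocounts, filters, scalings, thresholds and sample sets, the replicate block, and leaving out each library. The list of LTR7-like starts (GENCODE 44) and, for genes, the replicate block and left-out libraries, as well as the left-out libraries for the ratio of HERVH-int to the LTR7 group, were chosen after seeing the data. The other 15 of the 58 genes with such a start were not analysed here. The sequences of the start windows and 1 marker gene are not reported here.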

Additional observations from a re-analysis of the deposited data

Results flagged for a closer look

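For 3 families and 9 genes the DAC effect in DAC-resistant cells differed from that in parental cells by limma's test of the difference. Among the families these were HERVH-int (-0.78), LTR7C (-0.81) and LTR7B (1.14), each as the log2 effect in DAC-resistant cells minus that in parental cells. Among the genes known to silence or activate LTR7 they were DNMT1 (-0.64), TRIM28 (-0.45), UHRF1 (-0.34), ZNF90 (-0.53) and KLF4 (0.54). Of the genes with an HERVH link or an LTR7-like start they were ABHD12B (0.43), C5AR1 (-0.39), LINC02700 (0.93) and IFIT2 (-3.78). The calls of ABHD12B and C5AR1 were each lost without any 1 of 7 of the 8 libraries. ABHD12B and ZNF90 passed the filter only through the DAC-resistant libraries, and C5AR1 only through the parental ones. Their place among the 9 genes depends on that filter. Those tested were 6 families, 8 LTR7 regulators, 2 HERVH-linked genes and 7 genes with an LTR7-like start, with ABHD12B in both of the last lists. Over all features tested, 13.3% of families and 49.3% of genes passed the same test. Groups of 2 libraries are too small for a test of single libraries that stand apart.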

How the results depend on the processing

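Of the 5 families called with DAC in parental cells, 3 (HERVH-int, LTR7B and LTR7C) were called when only the groups compared were fitted, and leaving out 1 library gave 3 to 5. HERVH48-int (-0.01) and LTR7Y (-0.13) turned there when rescaled to TPM, as did the difference of the DAC effects for LTR7Y (0.31) and HERVH48-int (0.08), and LTR7 between the cell lines in DAC (0.10), under shifts of all families by -0.40, 0.35 and 0.23. Under the volcano thresholds, 0 families were called in this comparison, 0 between the cell lines in DMSO, 1 in DAC (HERVH-int) and 1 for the difference (LTR7B). Scaling by gene depth called 5 instead of 3 families between the cell lines in DMSO, and rescaling to TPM called 5 instead of 3 for the difference. Between the cell lines in DAC, leaving out 1 library gave 3 to 5 families. With DAC in parental cells, HERVH-int kept its call and direction under the 19 alternatives other than the volcano thresholds, with values from 0.33 to 0.76, and so did LTR7C (0.49 to 0.93) and LTR7B (-1.38 to -0.49). The ratio of HERVH-int to LTR7 alone changed by 0.84 with DAC in parental cells, -0.05 with DAC in DAC-resistant cells, and -0.28 in DMSO and -1.17 in DAC between the cell lines, and the ratio of reads by 0.47 in parental cells, -0.33 in DMSO and -0.95 in DAC. Leaving out 1 library, the ratio to the LTR7 group changed by 0.11 to 0.20 with DAC in parental cells and by -0.50 to -0.40 between the cell lines in DMSO. Of the HERVH-linked genes and LTR7 regulators together, 7 instead of 4 were called with DAC in parental cells without a filter, 2 to 6 between the cell lines in DMSO and 5 to 8 in DAC with 1 library left out. The main fit tested 2 and 8 of them, and 8 and 12 were above 0. It called 57.7%, 57.5% and 67% of all genes in these comparisons. The shares of all genes under the other settings are not given here. The causes of these differences were not tested.

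Replicate numbers did not pair the libraries (correlations of the replicate differences between -0.05 and 0.06 over 790 families). With the replicate number as a block, 4 instead of 5 families were called with DAC in parental cells, LTR7Y being lost, and the counts of families in the other comparisons were as without it, at 0, 3, 5 and 3. For the difference of the DAC effects, 2 instead of 4 genes with an LTR7-like start were called under the block. LTR7Y rested on the fewest reads, and with 161 to 253 of them its values carry the widest counting error of the 6 families.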

Other observations

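Markers of other cell types were also measured. Summed levels of 3 T cell markers were 0 in both parental DMSO libraries, 0.479 and 0.727 FPKM in parental DAC and at most 0.0751 in the DAC-resistant libraries. Those of 3 epithelial markers were 0.11 and 0.176 FPKM in parental DMSO, 1.15 and 1.54 in parental DAC and 0.0645 to 0.195 in the DAC-resistant libraries. Those of 3 erythroid markers were 0 to 3.05 FPKM over the 8 libraries. Those of 4 B and plasma cell markers (MS4A1, CD79A, JCHAIN and MZB1) were 1.91 and 2.02 FPKM in parental DMSO, 5.34 and 5.99 in parental DAC and 4.04 to 5.14 in the DAC-resistant libraries, mostly JCHAIN at 1.31 to 4.35. The part of these markers in the levels of HERVH-int and LTR7C, which were also highest in parental DAC, was not tested.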
